A study of Mus musculus with 8 samples.

Results

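Autophagy is the route by which a cell encloses cytoplasm or organelles in a double membrane and delivers them to lysosomes, and mitophagy is its form for mitochondria. The genes described here were the rows of the deposited FPKM table (fragments per kilobase of gene, scaled to the library's mapped total) whose symbol follows the Atg naming pattern, 18 genes, or is one of 20 further names of the same pathway. That gave 38 genes of 24535 in the table. Poly(A) RNA of brown adipose tissue was sequenced in 4 libraries of PATKO mice (PGRMC2 adipose tissue knockout; numbered 53, 57, 70 and 71) and 4 of wild-type (WT) mice (numbered 55, 62, 64 and 65). All were 129Sv/C57BL6j mice aged 18 weeks, on chow and kept at 30 °C. The sources used here do not name the driver of the knockout, nor whether a library stands for 1 animal, and p-values therefore refer to the spread among the libraries. Pgrmc2 encodes a membrane protein that the series title calls a heme chaperone.

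As background, autophagy begins when the ULK kinase complex switches on a lipid kinase complex that marks the growing membrane with phosphatidylinositol 3-phosphate. WIPI proteins read that lipid, ATG9 and ATG2 supply membrane, and a pair of ubiquitin-like conjugation systems attaches the small ATG8 proteins (the LC3 and GABARAP families) to the membrane. Cargo receptors bind ATG8 proteins and their load, and PINK1, BNIP3, BNIP3L and FUNDC1 mark mitochondria. Brown adipocytes are rich in mitochondria, and mitophagy is known to take part in their loss when brown fat is kept warm.

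The targeted gene was checked first. Pgrmc2 was 3.23, 2.99, 3.67 and 3.07 FPKM in PATKO 53, 57, 70 and 71, against 35.5, 41.5, 40.4 and 36.8 FPKM in WT 55, 62, 64 and 65 (limma adjusted p = 2.3e-08). All 10 brown adipocyte markers were listed above 0 FPKM in the means of both groups, with a summed level of 13301 to 15070 FPKM in PATKO and 12806 to 14555 FPKM in WT, and 0 of the 10 passed the threshold. That sum was mostly Fabp4 and Cidea. As deposited, 5 of the 10 had log2 changes above 0 and 5 below, where 84% of all genes lay above 0. Elovl3 stood lowest against WT, at 1.31, 1.15, 0.888 and 1.06 FPKM in PATKO 53, 57, 70 and 71, against 1.71, 14.7, 1.42 and 4.78 FPKM in WT 55, 62, 64 and 65, without overlap. Its WT mean came mainly from WT 62 and 65. The means of Ucp1 and Dio2 in PATKO were 67.7% and 70.1% of those in WT, with overlap. Ucp1 was 1305 FPKM in WT 64, against 522 to 583 FPKM in the other WT libraries. The other markers ran from 97.2% (Cox7a1) to 116% (Adipoq) of WT. After median-of-ratios scaling 7 of the 10 brown adipocyte markers lay below 0, as did 51.1% of all genes. Of the 10, 2 (Elovl3 and Ucp1) were then lower at a limma unadjusted p under 0.05 (8.21% of all genes). Skeletal muscle markers differed: as deposited, 12 of 12 passed the threshold and were higher in PATKO, as were 13.2% of all genes. Their summed level was 2181, 1410, 2124 and 5490 FPKM in PATKO 53, 57, 70 and 71 against 656, 499.5, 549 and 1242 FPKM in WT 55, 62, 64 and 65. After median-of-ratios scaling 0 of the 12 passed, and 5 were higher without overlap (5.57% of all genes). Of the markers of other cells, 0 of 6 macrophage, 0 of 3 tested lymphocyte (of 7 listed), 0 of 4 erythroid and 0 of 4 endothelial genes passed. The 3 tested lymphocyte genes were low, with means over all libraries up to 0.653 FPKM (Cd3d), and had log2 changes of -0.89 to -0.28. Of these, 2 were lower at an unadjusted p under 0.05, both as deposited (1.39% of all genes) and after median-of-ratios scaling (8.21%). All 4 erythroid genes had log2 changes below 0 (-0.47 to -0.38), as did 16% of all genes. After median-of-ratios scaling all 4 were lower at an unadjusted p under 0.05 (8.21% of all genes), 2 of them without overlap (4.36% of all genes). In bulk tissue, fewer cells of a type and less RNA per cell cannot be told apart.

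Most autophagy and mitophagy genes stood slightly higher in PATKO tissue, and 8 of the 38 rose: Ulk1 and Ulk2, Pik3c3, Wipi2, Atg7, Gabarap, Nbr1 and Bnip3. None fell. The test was limma on log2(FPKM + 0.5) over the 12235 genes whose mean reached 0.5 FPKM, which all 38 did, with Benjamini-Hochberg adjustment and a threshold of 0.05. The 8 genes are 21.1% of the 38, and 13.2% of all tested genes were called higher, while 0 members and 0.27% of all genes were called lower (0 members lower also at an unadjusted p under 0.05). The median log2 change of the members was 0.22, and that of all genes was 0.17; 34 of the 38 lay above 0, as did 84% of all genes. In 17 members (44.7%) every PATKO library lay above every WT library, against 24% of all genes, and in 0 every PATKO library lay below, against 0.597%. The number of calls also changed when 1 library was left out. Limma called 0, 5, 1 and 3 members without PATKO 53, 57, 70 and 71, and 7, 1, 0 and 3 without WT 55, 62, 64 and 65, while all 8 genes kept their direction. Calls over all genes moved likewise, with 22, 1001, 118 and 736 genes higher without those PATKO libraries and 1398, 138, 21 and 613 without those WT libraries. Without PATKO 53, the log2 changes of the 8 genes were 0.23 (Pik3c3) to 0.37 (Atg7), against 0.24 (Nbr1) to 0.36 (Atg7) with all libraries. Their limma adjusted p was then 0.0528 (Bnip3) to 0.115 (Pik3c3).

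The calls depended on that shift of the median gene. After median-of-ratios scaling, which divides each library by the median ratio of its genes to their means over the libraries and so centres the median gene, limma called 0 of the 38 higher and 0 lower (0.0817% and 0.0409% of all genes). At an unadjusted p under 0.05, 0 members were higher and 3 were lower after this scaling (7.89%, against 8.21% of all genes lower and 9.1% higher). The members' median log2 change was then 0.04, with 22 above and 16 below 0 (48.9% and 51.1% of all genes). All 17 separations towards PATKO were gone (5.57% of all genes had one), and in 4 members, Atg3, Atg12, Becn1 and Map1lc3a, every PATKO library lay below every WT library (10.5%, against 4.36% of all genes). Relative to the median gene, the 38 genes spread to both sides, as the plot of changes by role shows.

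**Figure D1:**
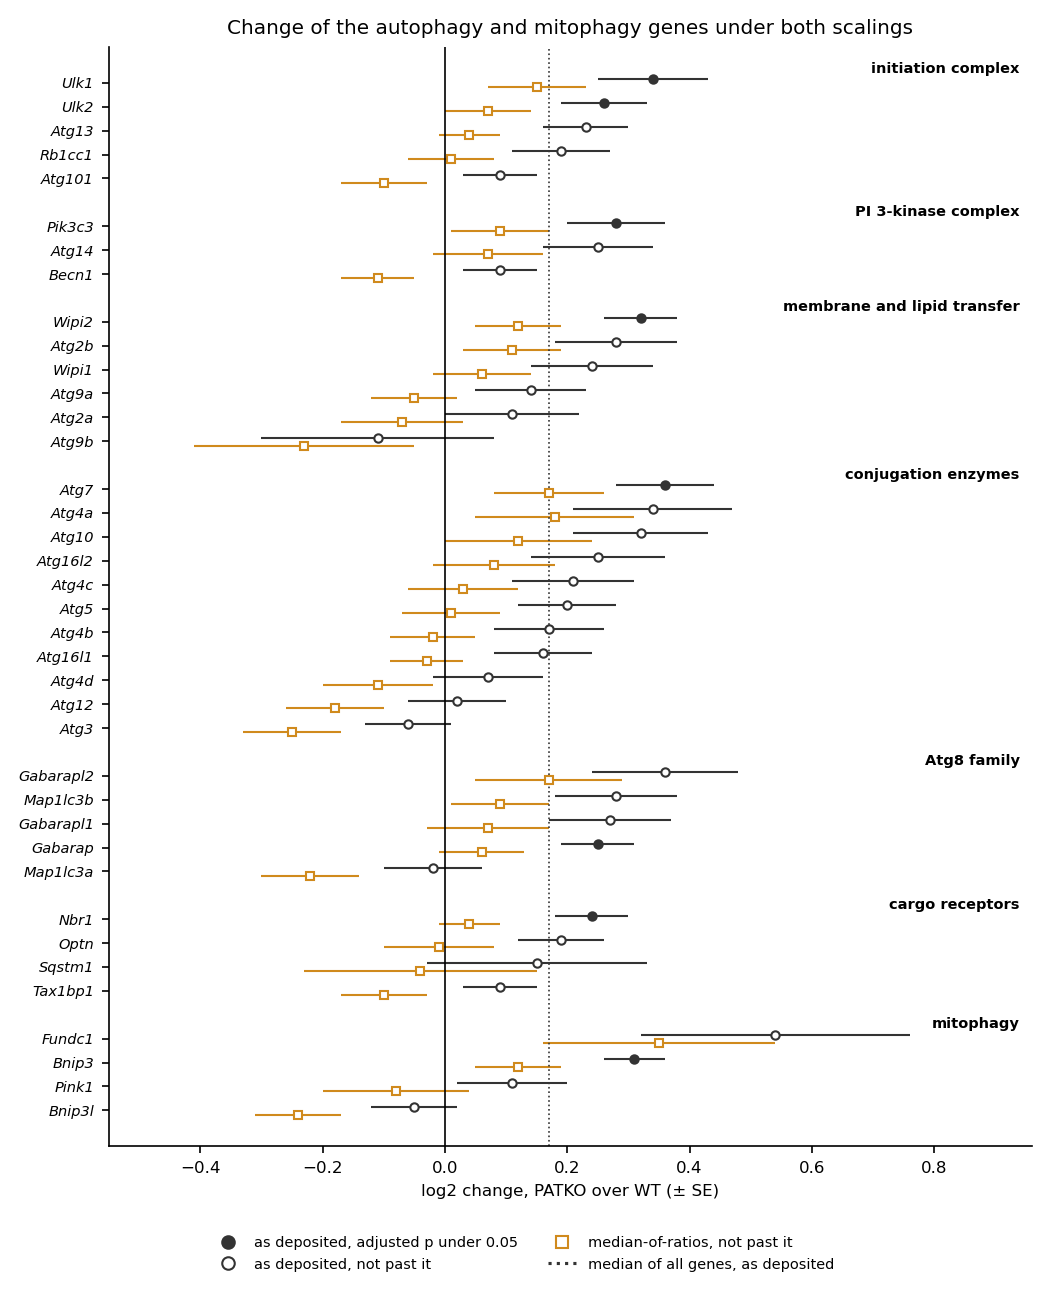
Log2 change (PATKO over WT, x axis) of each of the 38 genes (y axis, grouped by role) with its standard error, from limma with 4 libraries a group. Black circles are FPKM as deposited (filled where adjusted p is under 0.05) and orange squares are values after median-of-ratios scaling; 8 circles and 0 squares are filled, and the dotted line marks the median of all genes, 0.17.

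The initiation complex, which senses nutrient state and starts the process, held 2 of the 8 rises among its 5 genes. Ulk1 (chr5:110784488-110810097, minus strand, GRCm38, as are the positions that follow), a kinase that phosphorylates the other subunits, was 13.0, 10.4, 12.1 and 10.2 FPKM in PATKO 53, 57, 70 and 71, against 9.83, 8.31, 8.71 and 8.65 FPKM in WT 55, 62, 64 and 65. The groups did not overlap, but PATKO 71 and WT 55 were close (log2 change 0.34, SE 0.09, limma adjusted p = 0.0428; 0.15 after median-of-ratios scaling, adjusted p = 0.367). Its paralog Ulk2 (chr11:61775649-61855073, minus strand) was tighter, at 9.96, 9.70, 10.2 and 10.1 FPKM in the same PATKO libraries and 7.80, 8.15, 8.36 and 8.78 FPKM in WT (log2 change 0.26, SE 0.07, limma adjusted p = 0.0374; 0.07 and adjusted p = 0.644 after scaling). Atg13, the adaptor that links the kinase to the scaffold, averaged 10.3 ± 0.608 FPKM in PATKO and 8.71 ± 0.368 in WT (SD, n = 4 each) and just missed the threshold (limma adjusted p = 0.0527). The scaffold gene Rb1cc1, which encodes FIP200, averaged 6.30 ± 0.360 FPKM in PATKO and 5.47 ± 0.324 in WT (limma adjusted p = 0.111). Atg101, the most abundant of the 5 per length and a stabiliser of Atg13, had overlapping groups, 17.7, 19.8, 18.9 and 19.5 FPKM in PATKO 53, 57, 70 and 71 against 18.1, 17.1, 17.7 and 17.9 FPKM in WT 55, 62, 64 and 65. Its log2 change was 0.09 as deposited and -0.10 after scaling (limma adjusted p = 0.287 and 0.484).

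The lipid kinase complex had 1 rise among 3 genes, in the catalytic subunit. Pik3c3, which encodes the kinase VPS34, was 11.5, 9.70, 11.0 and 9.50 FPKM in PATKO 53, 57, 70 and 71, against 8.43, 9.04, 8.29 and 8.23 FPKM in WT 55, 62, 64 and 65. The groups did not overlap, with PATKO 57 and 71 nearest to WT, and the call lay at the edge of the threshold (log2 change 0.28, SE 0.08, limma adjusted p = 0.0497; 0.611 after scaling). Becn1, the regulatory subunit Beclin 1, was 25.1, 23.8, 26.5 and 24.4 FPKM in PATKO and 23.7, 24.2, 22.6 and 23.2 FPKM in WT, with overlap. Scaled by median-of-ratios it was 23.3 ± 0.494 FPKM in PATKO and 25.1 ± 1.14 in WT, without overlap and in the other direction (log2 change -0.11, limma adjusted p = 0.362; 0.09 and adjusted p = 0.308 as deposited). Atg14, which directs the complex to the site of autophagosome formation, averaged 4.46 ± 0.329 FPKM in PATKO and 3.68 ± 0.280 in WT (SD, n = 4 each; limma adjusted p = 0.0789).

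Among the 6 genes of membrane supply and lipid reading, Wipi2 (chr5:142627698-142670588, plus strand) rose. This reader of phosphatidylinositol 3-phosphate, which recruits the ATG16L1 complex, was 22.1, 23.9, 23.8 and 23.6 FPKM in PATKO 53, 57, 70 and 71, against 17.8, 18.6, 18.9 and 19.2 FPKM in WT 55, 62, 64 and 65. The lowest PATKO library, 53, stood well above the highest WT library (log2 change 0.32, SE 0.06, limma adjusted p = 0.0244; 0.12 and adjusted p = 0.38 after scaling). Its paralog Wipi1 averaged 8.98 ± 1.23 FPKM in PATKO and 7.47 ± 0.336 in WT and did not pass (limma adjusted p = 0.103). The lipid transfer genes Atg2b (4.50 ± 0.480 FPKM in PATKO, 3.60 ± 0.309 in WT) and Atg2a (5.0 ± 0.566 and 4.61 ± 0.608 FPKM), and the scramblase gene Atg9a (10.7 ± 0.999 and 9.64 ± 0.784 FPKM), did not pass either (SD, n = 4 each). Atg9b, the other ATG9 form, was the lowest member of all at 0.831, 0.538, 0.856 and 1.16 FPKM in PATKO 53, 57, 70 and 71 against 1.39, 0.748, 0.737 and 0.952 FPKM in WT 55, 62, 64 and 65, with overlapping groups. Its log2 change of -0.11 (SE 0.19, limma adjusted p = 0.683) was the most negative of the 38 as deposited. Exons of Atg9b overlap those of Nos3 on the other strand, and the strand setting of the authors' counting is not given in the sources used here.

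The conjugation machinery counted 11 genes, of which 1 rose. Atg7 (chr6:114643097-114860614, plus strand), the E1-like enzyme that activates both ATG12 and the ATG8 proteins, was 8.16, 9.35, 8.24 and 7.95 FPKM in PATKO 53, 57, 70 and 71, against 6.49, 6.94, 6.43 and 5.96 FPKM in WT 55, 62, 64 and 65. The groups stood apart, with PATKO 57 highest (log2 change 0.36, SE 0.08, limma adjusted p = 0.0294; 0.17 and adjusted p = 0.35 after scaling). Atg3, the E2-like enzyme that takes ATG8 proteins over from ATG7, lay on the other side of the list. It was 24.1, 23.7, 20.4 and 22.5 FPKM in PATKO 53, 57, 70 and 71, against 23.3, 23.2, 22.9 and 24.8 FPKM in WT 55, 62, 64 and 65, and the groups overlapped (log2 change -0.06, limma adjusted p = 0.577). After median-of-ratios scaling it was 22.9, 22.6, 17.7 and 21.8 FPKM in PATKO and 24.1, 25.5, 25.5 and 25.7 FPKM in WT, with no overlap (log2 change -0.25, SE 0.08, unadjusted p = 0.015 and limma adjusted p = 0.192). PATKO 70 was the lowest. Within a library, where no scaling enters, Atg7 stood at 0.338, 0.395, 0.403 and 0.354 times Atg3 in PATKO 53, 57, 70 and 71, against 0.279, 0.300, 0.280 and 0.240 times in WT 55, 62, 64 and 65. This pair was chosen after its values were seen, so its separation is given with no test.

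The other conjugation genes did not pass. Atg10, the E2-like enzyme of ATG12, averaged 17.1 ± 1.20 FPKM in PATKO and 13.8 ± 2.17 in WT (SD, n = 4 each; limma adjusted p = 0.0853), and WT 55 (10.6 FPKM) stood below the other WT libraries (14.5 to 15.4 FPKM). Atg5 and its ubiquitin-like partner Atg12 form 1 conjugate. Atg5 averaged 8.65 ± 0.258 FPKM in PATKO and 7.50 ± 0.665 in WT (limma adjusted p = 0.105), and Atg12 averaged 15.8 ± 0.458 and 15.7 ± 1.47 FPKM (limma adjusted p = 0.89). Atg16l1, which completes that conjugate, averaged 12.5 ± 0.695 FPKM in PATKO and 11.1 ± 0.902 in WT, and its paralog Atg16l2 averaged 2.83 ± 0.227 and 2.32 ± 0.370 FPKM (limma adjusted p = 0.158 and 0.141). The 4 Atg4 proteases, which prime ATG8 proteins and release them from lipid, ranged in level from Atg4a (2.23 ± 0.171 FPKM in PATKO, 1.68 ± 0.347 in WT) to Atg4b (12.8 ± 0.977 and 11.3 ± 1.05 FPKM), with limma adjusted p from 0.0916 (Atg4a) to 0.547 (Atg4d).

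Promoters are shown because members on both sides of the list share a sequence there. The 6 bases CACGTG, an E-box that reads the same on both strands and is the core bound by TFEB, USF and circadian factors in mammals, were searched for in the 250 bases before each RefSeq start (GRCm38.p6), where 31 of the 38 genes had an entry. They were found before Bnip3, Atg7, Atg5 and Atg3, which is 4 of 35 member promoters (11.4%) and compares with 6.02% of 32851 promoters of the genome table. The shorter ACGTG, which overlaps every CACGTG, was in 34.3% of member promoters and in 16.6% of all. CACGTG with GT before it and AC after it was in 0 member promoters and in 0.24% of all, and TGACTCA, the AP-1 motif, was in 0 and in 4.46%, both read on either strand. A match is a description of letters and does not show that a factor binds. The sequences run 5′ to 3′ on the gene's own strand, end at the base before the start, and carry CACGTG in capitals.
Bnip3, chr7:138909507-138909756, minus strand: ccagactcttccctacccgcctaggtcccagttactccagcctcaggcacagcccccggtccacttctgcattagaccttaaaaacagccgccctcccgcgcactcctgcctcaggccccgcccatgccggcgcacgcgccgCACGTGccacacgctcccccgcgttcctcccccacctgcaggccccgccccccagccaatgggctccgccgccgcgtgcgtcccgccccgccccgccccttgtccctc
Atg7, chr6:114670846-114671095, plus strand: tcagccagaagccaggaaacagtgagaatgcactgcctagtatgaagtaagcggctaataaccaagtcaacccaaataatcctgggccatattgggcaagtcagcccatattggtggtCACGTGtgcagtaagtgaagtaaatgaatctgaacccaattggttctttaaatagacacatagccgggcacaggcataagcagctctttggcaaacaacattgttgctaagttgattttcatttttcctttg
Atg5, chr10:44268089-44268338, plus strand: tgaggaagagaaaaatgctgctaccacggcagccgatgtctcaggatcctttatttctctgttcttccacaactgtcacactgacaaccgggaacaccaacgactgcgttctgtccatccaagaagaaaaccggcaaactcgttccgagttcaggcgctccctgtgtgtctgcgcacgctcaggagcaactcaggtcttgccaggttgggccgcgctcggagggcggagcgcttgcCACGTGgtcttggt
Atg3, chr16:45158579-45158828, plus strand: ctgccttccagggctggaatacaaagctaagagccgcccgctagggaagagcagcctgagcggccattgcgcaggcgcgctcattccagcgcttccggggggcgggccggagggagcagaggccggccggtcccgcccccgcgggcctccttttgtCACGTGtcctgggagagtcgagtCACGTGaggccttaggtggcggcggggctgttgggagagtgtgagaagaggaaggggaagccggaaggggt
Bnip3 has the E-box 108 bases before the start, Atg7 132 bases before it and Atg5 14 bases before it, while Atg3 has a pair, 94 and 71 bases before it. The RefSeq start used for Atg7 lies 27999 bases inside the gene as GENCODE places it, so that stretch precedes an internal start and not the first one; the starts of Bnip3, Atg5 and Atg3 lie close to the GENCODE gene starts. Of these 4 genes Bnip3 and Atg7 rose as deposited, Atg5 did not pass, and Atg3 had the most negative log2 change of the 38 after median-of-ratios scaling.

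**Figure D2:**
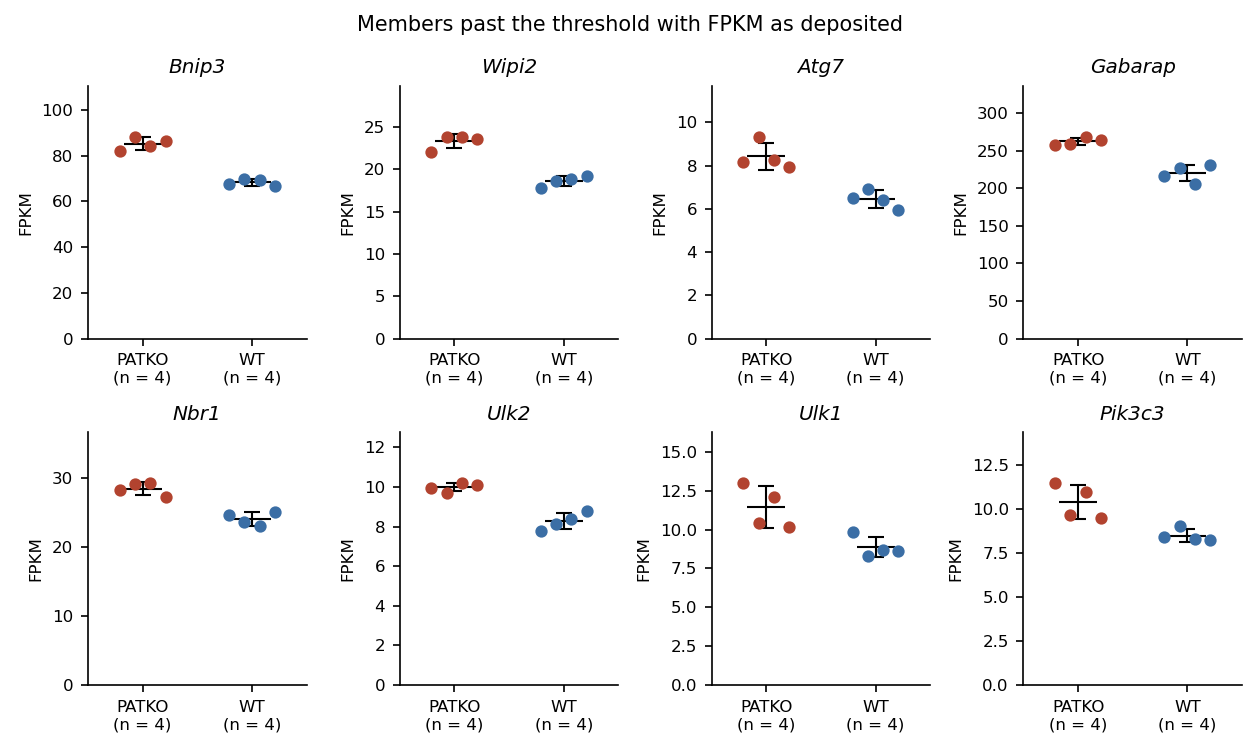
FPKM (y axis, from 0) of the 8 genes past the threshold in each PATKO library (red, left) and each WT library (blue, right), with the mean and SD of 4 libraries as bars. The groups do not overlap in any of the 8 panels; Bnip3, for example, spans 82.0 to 88.4 FPKM in PATKO and 66.8 to 70.0 FPKM in WT.

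The ATG8 family, the small proteins that coat the membrane and bind receptors, was the most abundant group, and 1 of its 5 genes rose. Gabarap (chr11:69991143-69994951, plus strand) was the highest member of all, at 258, 259, 269 and 264 FPKM in PATKO 53, 57, 70 and 71, against 217, 227, 206 and 230.4 FPKM in WT 55, 62, 64 and 65. The groups did not overlap (log2 change 0.25, SE 0.06, limma adjusted p = 0.0316; 0.06 and adjusted p = 0.725 after scaling). Map1lc3a, which encodes LC3A, was 111, 101, 127 and 116 FPKM in the PATKO libraries and 109.6, 109.7, 124 and 118 FPKM in WT, with full overlap (log2 change -0.02, SE 0.08, limma adjusted p = 0.866). Scaled by median-of-ratios, it was 105, 96.7, 109.8 and 113 FPKM in PATKO and 113, 121, 138 and 123 FPKM in WT, which touched but did not overlap (log2 change -0.22, SE 0.08, unadjusted p = 0.0215, limma adjusted p = 0.218). LC3B, the usual marker of autophagosomes, comes from Map1lc3b. That gene was 55.7, 46.9, 64.6 and 52.5 FPKM in PATKO 53, 57, 70 and 71, against 48.5, 45.2, 43.5 and 42.0 FPKM in WT 55, 62, 64 and 65. PATKO 57 fell below WT 55, and the gene did not pass (log2 change 0.28, SE 0.10, limma adjusted p = 0.0723). Its exons overlap those of Zcchc14 on the other strand.

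The remaining GABARAP genes had overlapping groups. Gabarapl1 was 111, 96.6, 118 and 96.8 FPKM in PATKO 53, 57, 70 and 71, against 100, 94.1, 80.9 and 76.4 FPKM in WT 55, 62, 64 and 65 (log2 change 0.27, SE 0.10, limma adjusted p = 0.0989). PATKO 57 and 71 lay within the WT range. Gabarapl2 was far lower per length, at 6.77, 7.58, 7.82 and 8.16 FPKM in PATKO and 6.0, 4.61, 6.93 and 5.87 FPKM in WT, where PATKO 53 lay below WT 64 (log2 change 0.36, SE 0.12, limma adjusted p = 0.0628). How the authors' counting treated reads that match near-identical copies is not given in the sources used here, so levels within this family are uncertain.

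Of the 4 receptors that tie ubiquitinated cargo to ATG8 proteins, Nbr1 (chr11:101552149-101581951, plus strand) rose. It was 28.3, 29.1, 29.3 and 27.2 FPKM in PATKO 53, 57, 70 and 71, against 24.6, 23.6, 23.0 and 25.1 FPKM in WT 55, 62, 64 and 65, without overlap (log2 change 0.24, SE 0.06, limma adjusted p = 0.0364; 0.04 and adjusted p = 0.729 after scaling). Sqstm1, which encodes p62 and is the most abundant of the 4 per length, was 97.8, 72.0, 108 and 85.9 FPKM in PATKO and 65.9, 117, 73.8 and 74.0 FPKM in WT. WT 62 exceeded every other library, and the difference was smaller than the spread (log2 change 0.15, SE 0.18, limma adjusted p = 0.547). Optn, a receptor of ubiquitinated mitochondria, averaged 53.1 ± 3.82 FPKM in PATKO and 46.5 ± 3.10 in WT (SD, n = 4 each; limma adjusted p = 0.101), and Tax1bp1 averaged 36.1 ± 1.26 and 33.9 ± 2.11 FPKM (limma adjusted p = 0.306).

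Of the 4 mitophagy genes, 1 rose. Bnip3 (chr7:138890836-138909519, minus strand), an outer-membrane receptor that is induced by hypoxia, had the smallest adjusted p of the 38. It was 82.0, 88.4, 84.4 and 86.4 FPKM in PATKO 53, 57, 70 and 71, against 67.6, 70.0, 69.3 and 66.8 FPKM in WT 55, 62, 64 and 65. The lowest PATKO library exceeded the highest WT library by more than the range of either group (log2 change 0.31, SE 0.05, limma adjusted p = 0.0208). After median-of-ratios scaling the log2 change was 0.12 and the groups overlapped (limma adjusted p = 0.43). Bnip3l, its close paralog, also called NIX, was 12.5, 11.2, 11.6 and 11.6 FPKM in PATKO and 11.4, 12.5, 12.0 and 12.9 FPKM in WT, with overlap (log2 change -0.05, SE 0.07, limma adjusted p = 0.573). After scaling it averaged 11.0 ± 0.756 FPKM in PATKO and 13.1 ± 0.889 in WT (SD, n = 4 each), with the smallest unadjusted p of the 38 on that scale, 0.00846 (log2 change -0.24, SE 0.07, limma adjusted p = 0.163). WT 55 was the WT library within the PATKO range.

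Pink1, the kinase that marks damaged mitochondria for Parkin, was nearly the same in the 4 PATKO libraries and scattered in WT. It was 123, 124, 122 and 123 FPKM in PATKO 53, 57, 70 and 71, against 105, 127, 128 and 97.9 FPKM in WT 55, 62, 64 and 65 (limma adjusted p = 0.377). Fundc1, another receptor that responds to hypoxia, had the largest log2 change of the 38 and did not pass (0.54, SE 0.22, limma adjusted p = 0.108). Its values were 9.15, 8.54, 19.1 and 9.21 FPKM in PATKO, against 7.13, 7.07, 7.53 and 7.53 FPKM in WT. The groups did not overlap, but PATKO 70 stood far above the other PATKO libraries, and without it the log2 change was 0.28 (limma adjusted p = 0.0683). The X-linked genes Kdm6a, Maoa and Maob near Fundc1, chosen after its values were seen, were 3.73, 5.40 and 68.3 FPKM in PATKO 70, against 3.38 to 3.87, 4.32 to 5.14 and 66.6 to 70.1 FPKM in the other PATKO libraries, so PATKO 70 did not stand apart in them by a like amount.

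**Figure D3:**
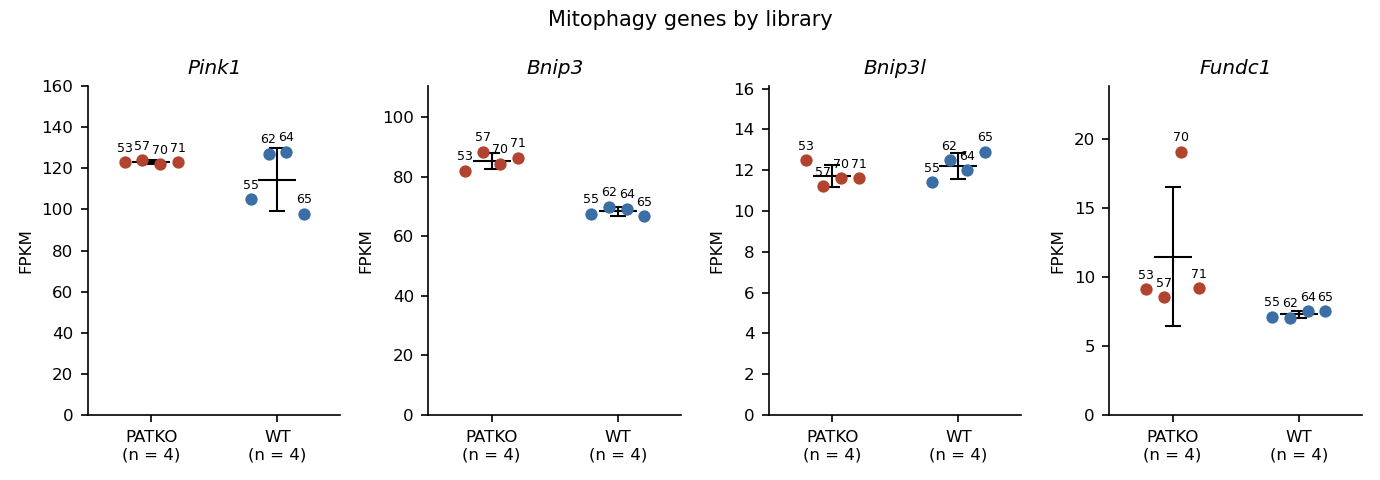
FPKM (y axis, from 0) of the 4 mitophagy genes in each library, PATKO in red on the left and WT in blue on the right, numbered by library, with the mean and SD of 4 libraries as bars. Bnip3 and Fundc1 separate the groups, and Pink1 and Bnip3l do not. Fundc1 is 19.1 FPKM in PATKO 70, against 8.54 to 9.21 FPKM in the other PATKO libraries.

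Ratios between paralogs within a library do not depend on the scaling between libraries. Of 12 such ratios, 2 did not overlap between groups, both higher in PATKO, and 10 did. The share among ratios of other gene pairs was not computed. Bnip3 stood at 6.56, 7.88, 7.27 and 7.47 times Bnip3l in PATKO 53, 57, 70 and 71, against 5.94, 5.59, 5.76 and 5.20 times in WT 55, 62, 64 and 65. Each PATKO library was above the highest WT library, and the PATKO mean was 129.7% of the WT mean. Map1lc3b stood at 0.501, 0.463, 0.511 and 0.451 times Map1lc3a in PATKO, against 0.443, 0.412, 0.351 and 0.356 times in WT, where PATKO 71 and WT 55 were close. The ratio of Gabarapl1 to Gabarap, in contrast, averaged 0.402 ± 0.0377 in PATKO and 0.400 ± 0.0537 in WT (SD, n = 4 each), and that of Ulk1 to Ulk2 averaged 1.15 ± 0.130 and 1.08 ± 0.125. The pairs were set after single genes had been seen, so no test is given, and a ratio shows unequal change without saying which gene moved.

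**Figure D4:**
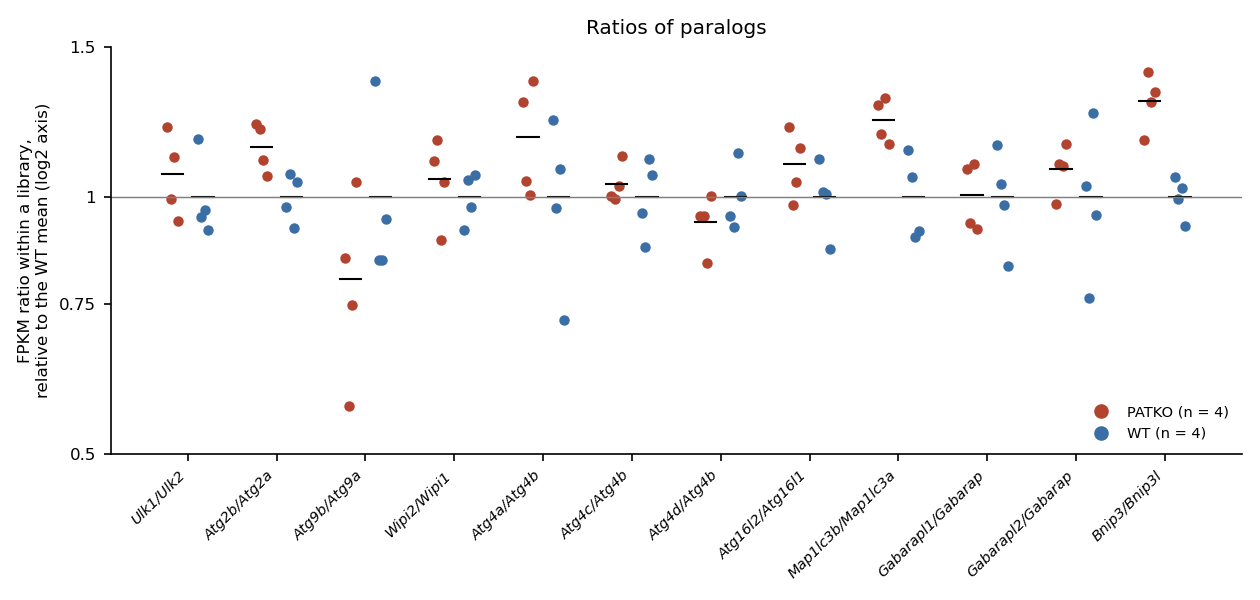
FPKM ratio of 12 paralog pairs within each library, divided by the WT mean of that ratio (y axis, log2 scale), for 4 PATKO libraries (red, left of each pair) and 4 WT libraries (blue, right), with short bars at the group means. Only Map1lc3b over Map1lc3a and Bnip3 over Bnip3l separate the groups among these 12.

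The partner genes of the pathway followed the same course. Of 54 genes in 5 lists of partners, 11 rose and 0 fell (20.4%, against the same 13.2% of all genes called higher), with a median log2 change of 0.21. After median-of-ratios scaling 0 passed and the median was 0.03. At an unadjusted p under 0.05 on that scale, 4 were higher and 4 lower (7.41% each, against 9.1% of all genes higher and 8.21% lower). By list, 2 of 12 lipid kinase and phagophore partners, 3 of 13 genes of fusion with lysosomes, 1 of 7 other receptors and adaptors, 1 of 9 mitophagy partners and 4 of 13 nutrient and energy kinase genes rose. Wdr45b, which encodes the lipid reader WIPI3, was 18.7, 19.3, 18.3 and 19.3 FPKM in PATKO 53, 57, 70 and 71, against 16.1, 13.8, 14.3 and 15.1 FPKM in WT 55, 62, 64 and 65 (limma adjusted p = 0.0251). Wdr45, which encodes WIPI4, was 33, 31.4, 37.8 and 30.2 FPKM in PATKO and 23.6, 26.1, 25.4 and 28.0 FPKM in WT (limma adjusted p = 0.0346). Neither gene overlapped between groups as deposited. After median-of-ratios scaling Wdr45b overlapped and Wdr45 did not (limma adjusted p = 0.282 and 0.306).

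Tecpr1, a tether of autophagosomes and lysosomes, was 25.5, 23.3, 25.7 and 27.8 FPKM in PATKO 53, 57, 70 and 71, against 21.6, 20.1, 18.3 and 19.0 FPKM in WT 55, 62, 64 and 65 (limma adjusted p = 0.0278). Usp15, a deubiquitinase that opposes Parkin, was 8.58, 7.95, 8.63 and 8.56 FPKM in PATKO and 6.74, 6.91, 6.46 and 6.77 FPKM in WT (limma adjusted p = 0.0278). The ubiquitin-binding adaptor gene Tollip was 14.7, 13.8, 15.8 and 13.2 FPKM in PATKO and 11.6, 12.3, 11.5 and 11.3 FPKM in WT (limma adjusted p = 0.0373). In all of these, which were picked by their calls, the lowest PATKO library lay above the highest WT library, as in 24% of all genes. After median-of-ratios scaling the groups overlapped for Tecpr1, Usp15 and Tollip (limma adjusted p = 0.309, 0.372 and 0.47).

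The largest log2 change among the 11 partners that rose was in an AMPK subunit. AMPK, the energy-sensing kinase that acts on ULK1, has the regulatory subunit genes Prkab2 and Prkag2 among others. Prkab2 was 4.39, 3.02, 4.88 and 5.19 FPKM in PATKO 53, 57, 70 and 71, against 1.82, 2.15, 1.91 and 2.82 FPKM in WT 55, 62, 64 and 65 (log2 change 0.85, SE 0.17, limma adjusted p = 0.0261; 0.69 and adjusted p = 0.13 after scaling, with overlap). PATKO 57 came close to WT 65, and PATKO 71, the library with the highest muscle markers, was the highest. With the muscle marker level as a covariate the log2 change of Prkab2 was 0.28 (SE 0.23, limma adjusted p = 0.628). Marker level and genotype are hard to separate in that fit, and the cause of the change was not tested. Prkag2 was 90.2, 104, 98.9 and 86.2 FPKM in PATKO and 83.9, 58.3, 71.8 and 69.2 FPKM in WT (limma adjusted p = 0.0374). Tsc1, a brake on mTORC1, was 5.20, 4.10, 6.34 and 5.20 FPKM in PATKO and 3.46, 3.92, 3.39 and 2.71 FPKM in WT (limma adjusted p = 0.0351). Deptor, an inhibitor of mTOR that was chosen after its values were seen, averaged 37.4 ± 4.39 and 57.2 ± 17.6 FPKM and did not pass (log2 change -0.56, limma adjusted p = 0.0836).

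Skeletal muscle markers were higher in PATKO, as the 8 genes were, so their level and the genotype are hard to separate in a fit. Adding the mean log2 marker level as a covariate raised the standard error from 0.05 to 0.11 for Bnip3 and from 0.08 to 0.16 for Pgrmc2. The median log2 change of the members was 0.19 with the covariate and 0.22 without it. With the covariate, limma called 0 of the 38 members higher, and 1 gene higher and 1 lower over all 12235. The log2 changes of the 8 genes were then between 0.18 (Ulk2) and 0.56 (Atg7), with standard errors of 0.11 to 0.18. Those of the 8 named partners were between 0.24 (Tecpr1) and 0.64 (Tsc1). None of the 12 muscle markers passed after median-of-ratios scaling, where all 12 had an unadjusted p under 0.05, and their part in the results beyond this covariate was not tested. As deposited, PATKO 71, which had the most muscle signal, was the highest library for 3 of the 38 members, and PATKO 70 was the highest for 17. PATKO 70 also had the largest scaling factor, 1.153, against 1.031 to 1.057 in the other PATKO libraries and 0.899 to 0.967 in WT. After scaling, PATKO 70 was the highest for 5 members and PATKO 71 for 7, the most of any library.

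In the authors' deposited table, whose test is not named there, 0 of the 38 members had an adjusted p under 0.05, and the values ran from 0.0739 to 0.998. For the 8 genes that limma called higher here, the authors' values ran from 0.429 (Ulk1) to 0.926 (Atg7). The smallest of the 38 were those of Bnip3l (0.0739), Map1lc3a (0.0807) and Atg3 (0.131). In the authors' deposited table these 3 genes also had PATKO means slightly below their WT means, at 11.7 and 12.2 FPKM for Bnip3l.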

How the data were processed

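Poly(A) libraries were prepared with a stranded kit (0.5 µg total RNA input), per the labels' protocols, and the build was mm10, per the submitters' processing notes. The sources used here name no aligner, counter, strand setting or annotation. The authors deposited 1 FPKM value per gene and library, a mean FPKM per group and an adjusted p-value, per the file headers. FPKM values are not counts, so log2(FPKM + 0.5) was tested with limma 3.58.1 in R 4.3.3 (mean-variance trend, two-sided); such log2 changes understate those of low genes. The step was tested on simulated data. Read totals are unknown, and no counting interval is given; the spacing of low values gave relative depths of 1.302 to 1.427 against WT 55. The members, lists and tests were chosen with earlier results of these data known.

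Per-library values were given for Pgrmc2, for members past the threshold in either scaling, in each role group for the member with the highest mean FPKM and those with the largest positive and negative log2 change, for the whole ATG8 family, and for at most 8 partner genes past the threshold, by smallest adjusted p; other members are given by mean and SD. Positions came from GENCODE M21 (GRCm38). Exons of 14 members overlap those of another gene, 7 of them a protein-coding gene. Python 3.11.15, pandas 2.3.3, scipy 1.17.1 and matplotlib 3.10.9 were used. The alternatives changed the pseudocount (1, 0.1), the filter (none, 5 FPKM), the scaling, the variance model, a muscle covariate and the libraries included.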

Additional observations from a re-analysis of the deposited data

Results flagged for a closer look

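In each group of 4 libraries, the gap between the most extreme library and its nearest neighbour was compared with the range of the group for all 38 members, where chance alone sets about 1 in 20 groups apart. Of 76 groups, 5 held a library that stood apart. Fundc1 was 19.1 FPKM in PATKO 70, against 8.54 to 9.21 FPKM in the other PATKO libraries. Sqstm1 was 117 FPKM in WT 62, against 65.9 to 74.0 FPKM in the other WT libraries. Atg10 was 10.6 FPKM in WT 55, against 14.5 to 15.4 FPKM in the others. Tax1bp1 was 38 FPKM in PATKO 57, against 35.4 to 35.7 FPKM, and Wipi2 was 22.1 FPKM in PATKO 53, against 23.6 to 23.9 FPKM, which are narrow groups.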

How the results depend on the processing

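With FPKM as deposited, 8 members and 11 partners rose, with a median log2 change of the members of 0.22. Under median-of-ratios, common total and quantile scaling 0 members and 0 partners passed, and the median was 0.04, 0.13 and 0.03. With the muscle covariate 0 and 0 passed (1 gene higher over all genes), without the mean-variance trend 4 and 5 (973), and with no filter on low values 6 and 5 (700), against 1613 genes as reported. A minimum mean of 5 FPKM gave 10 of 32 members and 14 of 41 partners (1598), with Gabarapl2 past the threshold (limma adjusted p = 0.0497), and Map1lc3b passed without PATKO 57 (limma adjusted p = 0.0466). Pseudocounts of 1 and 0.1 gave 7 and 8 members and robust variance 7, each with 11 partners. Leaving out 1 library gave 0 to 7 members and 0 to 8 partners higher, and 1 partner lower without WT 55; under median-of-ratios scaling leaving out 1 library gave 0 and 0 throughout, with a median of 0.01 to 0.05. Pgrmc2 fell under every alternative run. Under median-of-ratios scaling 12 members, none of them called, turned from above to below 0. Of those given by library, under median-of-ratios, common total and quantile scaling, Atg101 was -0.10, -0.01 and -0.11 and Becn1 was -0.11, -0.01 and -0.11; Pink1 was -0.08 and -0.02 under median-of-ratios and quantile scaling; and Sqstm1 was -0.04 under median-of-ratios scaling. Leaving out 1 library as well under median-of-ratios scaling (PATKO 53, 57, 70 and 71, then WT 55, 62, 64 and 65) gave -0.07, -0.13, -0.06, -0.13, -0.11, -0.10, -0.08 and -0.11 for Atg101; -0.12, -0.10, -0.10, -0.11, -0.12, -0.08, -0.11 and -0.13 for Becn1; and -0.09, -0.10, -0.05, -0.10, -0.14, -0.02, -0.01 and -0.17 for Pink1. Sqstm1 was -0.09, -0.09 and -0.04 without PATKO 53, 70 and 71 and -0.16, -0.07 and -0.10 without WT 55, 64 and 65, and Gabarapl1 was -0.01 without WT 65. As deposited, leaving out 1 library gave -0.22 to 0.02 for Atg9b (above 0 without PATKO 57 or WT 55) and -0.07 to 0.03 for Map1lc3a (above 0 without PATKO 57 or WT 64). The cause was not tested. Read depth is unknown, so the counting error of low genes such as Atg9b cannot be given. No paired analysis was possible because the groups share no library numbers.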
